A study of Homo sapiens with 6 samples.

Results

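The RNA exosome core subunit genes were examined in SW480, a human cell line derived from a colon adenocarcinoma, after stable integration of 1 of 2 lentiviral constructs. The genes were chosen by name from the subunits of the complex and were EXOSC1, EXOSC2, EXOSC3, EXOSC4, EXOSC5, EXOSC7, EXOSC8, EXOSC9, EXOSC10 and DIS3. These 10 genes were found under their own symbols among the 28307 symbols of the deposited gene tables, and all 10 were among the 13300 genes with a mean of at least 1 TPM (a transcript level scaled for transcript length and library size). The control group carried pLENTI CMV Clover, a fluorescent protein under the cytomegalovirus promoter (n = 3 libraries). The other group carried pLENTI CMV Z18trunc, a shortened version of ZC3H18, a protein of nuclear RNA surveillance, under the same promoter (n = 3 libraries). Both groups had passed through lentiviral transduction and antibiotic selection, with puromycin, and the lines of each group were made as biological triplicates. Polyadenylated RNA was sequenced as stranded paired-end libraries.

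The RNA exosome is the main machine of the cell for degrading RNA from its 3′ end. A ring of EXOSC4, EXOSC5, EXOSC6, EXOSC7, EXOSC8 and EXOSC9 forms a channel, and a cap of EXOSC1, EXOSC2 and EXOSC3 sits on top of it and contacts RNA. In human cells the ring and cap have no catalytic activity of their own. RNA is cut by DIS3, which has exonuclease and endonuclease activity, and by EXOSC10, a nuclear exonuclease enriched in the nucleolus. In the nucleus the helicase MTR4 and its adaptor complexes NEXT and PAXT hand RNA to the exosome, and ZC3H18 links those adaptors to proteins on the RNA cap. Measuring these genes asks whether the messages that encode the degrading machine itself differed in cells that carried the truncated adaptor protein.

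Promoters of 4 of these genes are shown first. They are the RefSeq windows (GRCh38.p14) from 250 bases before to 50 bases after the transcription start of EXOSC2, EXOSC8, EXOSC10 and DIS3, which were chosen after the values were seen, because the level of each gene was higher in all 3 Z18trunc libraries than in all 3 Clover libraries. EXOSC1 shared that order but had no window in the table. The same order was seen in 30.1% of all 13300 genes. When each library was centred within bins of transcript GC content (below), the groups overlapped for EXOSC2, EXOSC8 and DIS3. Each window is written 5′ to 3′ on the strand of the gene. Capitals mark the core motif of the factors ETS (CCGGAAG), YY1 (AAGATGG) or NRF1 (GCATGCG), each searched on both strands. The windows are chr9:130693510-130693809 on the plus strand for EXOSC2, chr13:37000536-37000835 on the plus strand for EXOSC8, chr1:11099820-11100119 on the minus strand for EXOSC10 and chr13:72781851-72782150 on the minus strand for DIS3.
EXOSC2: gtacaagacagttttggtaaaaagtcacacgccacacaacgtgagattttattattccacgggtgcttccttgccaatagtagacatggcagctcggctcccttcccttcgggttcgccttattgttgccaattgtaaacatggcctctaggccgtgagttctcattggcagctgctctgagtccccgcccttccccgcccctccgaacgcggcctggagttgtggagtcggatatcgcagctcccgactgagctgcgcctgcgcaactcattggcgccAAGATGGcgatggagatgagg
EXOSC8: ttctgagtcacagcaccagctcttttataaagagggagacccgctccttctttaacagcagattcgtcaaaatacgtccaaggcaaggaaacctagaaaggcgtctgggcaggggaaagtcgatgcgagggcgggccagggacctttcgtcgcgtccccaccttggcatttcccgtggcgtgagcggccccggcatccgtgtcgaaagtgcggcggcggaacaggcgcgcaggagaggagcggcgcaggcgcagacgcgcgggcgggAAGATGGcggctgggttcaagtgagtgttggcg
EXOSC10: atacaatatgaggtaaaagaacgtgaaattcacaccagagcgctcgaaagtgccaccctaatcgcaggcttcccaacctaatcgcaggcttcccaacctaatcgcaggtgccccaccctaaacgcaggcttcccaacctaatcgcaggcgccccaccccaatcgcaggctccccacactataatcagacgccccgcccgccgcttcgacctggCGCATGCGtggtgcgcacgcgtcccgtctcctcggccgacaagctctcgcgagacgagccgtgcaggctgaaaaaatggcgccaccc
DIS3: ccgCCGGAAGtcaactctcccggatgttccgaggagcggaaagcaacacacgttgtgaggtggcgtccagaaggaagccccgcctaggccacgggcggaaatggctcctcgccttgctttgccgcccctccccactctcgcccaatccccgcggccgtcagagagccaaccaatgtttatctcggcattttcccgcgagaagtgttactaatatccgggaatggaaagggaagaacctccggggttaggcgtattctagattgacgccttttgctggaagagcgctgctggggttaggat

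The 4 windows did not share one of these 3 motifs. The YY1 core was present in EXOSC2 and EXOSC8, where it began 29 and 17 bases after the start base, in 5.84% of all 35116 windows in the table and in 7.05% of the 14562 windows of genes tested here. In both genes its letters include an ATG. The NRF1 core was present in EXOSC10, where matches on the plus and minus strands overlap and make up the capitals, in 3.91% of all windows and in 5.69% of those of tested genes. The ETS core was present in DIS3, 247 bases before the start, in 10.3% of all windows and in 17.2% of those of tested genes. A window was found for 8 of the 10 genes, 9 windows in all because EXOSC3 had 2. Among the 8 genes, the GC box GGGCGG occurred in 7, against 45.0% of all windows and 67.6% of those of tested genes. The CCAAT box occurred in 5 of the 8 genes, against 34.6% and 34.5%. The E-box CACGTG occurred in EXOSC5, against 7.26% and 9.55%, and the TATA box TATAAA in EXOSC8, against 11.5% and 6.04%. GC content ranged from 52.3% to 76.0% in the windows of these genes, with a median of 58.7% over the whole table. A match in these letters is a description of sequence and was not tested for binding.

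Sequencing depth was similar in the 6 libraries, with 18226033 to 22463310 aligned fragments each. ZC3H18 itself was at 57.2 ± 5.39 TPM in Clover and at 763 ± 31.2 TPM in Z18trunc (SD, n = 3), which is 3.72 higher on the log2(TPM + 1) scale (limma adjusted p = 3.2e-05), and this sum includes RNA from the construct. Colon and epithelial markers summed to between 22872 and 24914 TPM per library. Most of that sum was keratin, with Clover means of 9937 TPM for KRT8 and 11640 TPM for KRT18. The Clover means of CDX2, VIL1 and CDH1 were 47.5, 12.3 and 11.4 TPM, and KRT20 was listed at 0 throughout. The 7 markers of immune, stromal, endothelial and melanocytic cells summed to between 2.83 and 4.74 TPM. The 100 most abundant genes took 31.9%, 33.6% and 32.2% of all TPM in Clover libraries 1, 2 and 3 and 31.3%, 30.8% and 30.8% in the Z18trunc libraries. The median log2 difference of all 13300 genes was 0.11, so the differences of the exosome genes are to be read against that shift.

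Core subunit levels spanned more than 1 order of magnitude in SW480. In Clover the order by mean TPM was EXOSC5, EXOSC4, EXOSC8, EXOSC7, EXOSC3, EXOSC2, EXOSC1, EXOSC10, EXOSC9 and DIS3. The ranges of 3 of the 9 neighbouring pairs overlapped, namely EXOSC4 with EXOSC8, EXOSC7 with EXOSC3, and EXOSC2 with EXOSC1. In Z18trunc the order was the same except that EXOSC8 stood above EXOSC4, and the ranges of EXOSC5 with EXOSC8, EXOSC7 with EXOSC3, and EXOSC3 with EXOSC2 overlapped. The mean of EXOSC5 was 27.5 times that of DIS3 in Clover and 18.8 times in Z18trunc. Without DIS3, the highest of the other 9 genes was 7.58 times the lowest in Clover. For comparison, the 14 genes of the 20S proteasome core spanned 16.3 times in Clover, from PSMA5 at 54.8 to PSMA7 at 895 TPM. The 8 genes of the CCT chaperonin spanned 5.99 times, from TCP1 at 173 to CCT7 at 1036 TPM.

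**Figure D1:**
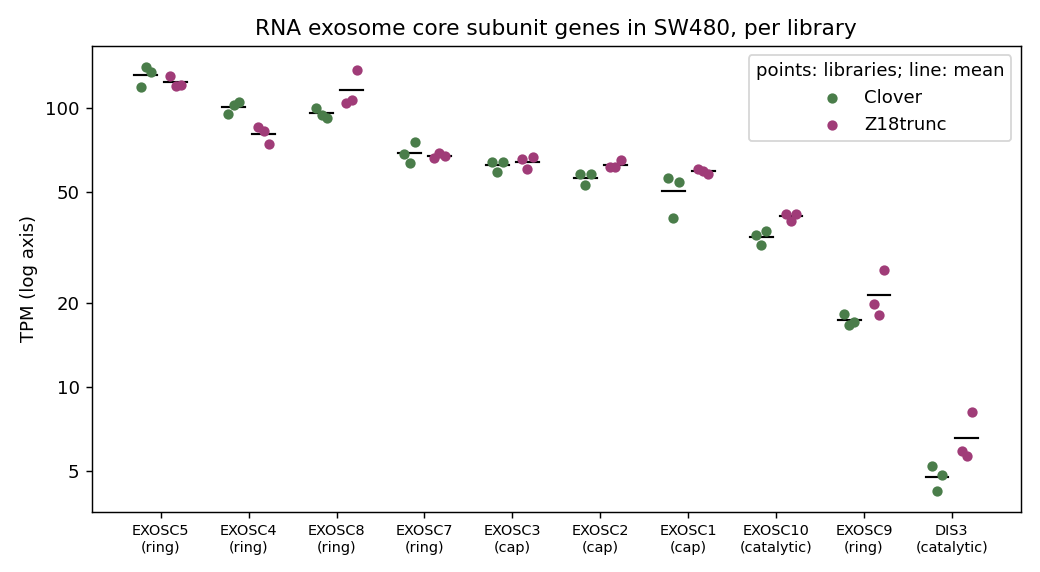
TPM (log axis) of the 10 exosome genes in each of the 3 Clover and 3 Z18trunc libraries, ordered by the Clover mean. Points are libraries and lines are group means. EXOSC5 has the highest means, at 118 to 139.6 TPM in single libraries, but EXOSC8 lies above it in Z18trunc library 3. DIS3 lies lowest, at 4.24 to 8.10 TPM, and the Z18trunc points of EXOSC4 lie below its Clover points.

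None of the 10 genes passed limma's test at an adjusted p of 0.05, against a background of 0.0150% of genes tested (2 of 13300). At an unadjusted p under 0.05, 2 of the 10 were higher in Z18trunc (DIS3 and EXOSC10) and 1 was lower (EXOSC4), against 25.6% and 2.90% of all genes. By order alone, 5 of the 10 had all 3 Z18trunc values above all 3 Clover values, where 30.1% of all genes did so. These were EXOSC1, EXOSC2, EXOSC8, EXOSC10 and DIS3. In the other direction stood 1 of the 10, EXOSC4, where 6.73% of all genes did so. The log2 difference was above 0 for 7 genes and below 0 for 3, with a median of 0.20. The highest was 0.38, for DIS3, and the lowest was -0.31, for EXOSC4. In these bulk libraries, a change in RNA per cell cannot be told apart from a change in the make-up of the cells.

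The catalytic subunits were the lowest expressed genes beside EXOSC9. DIS3, on chromosome 13 (hg38, 72752170 to 72781900, minus strand, 21 exons), was at 5.18, 4.24 and 4.83 TPM in Clover and at 5.90, 5.67 and 8.10 TPM in Z18trunc. The lowest Z18trunc value exceeded the highest Clover value, and Z18trunc library 3 stood above the other 2. The means were 4.75 ± 0.475 and 6.56 ± 1.34 TPM (SD, n = 3), and the log2 difference was 0.38 (SE 0.14, 95% interval 0.06 to 0.71, limma adjusted p = 0.132). Without Z18trunc library 3 the difference was 0.24. Read coverage of DIS3 was 9.80 to 18.6 per base, the lowest of the 10 genes, whereas that of EXOSC5 was 243 to 330.4. The canonical GENCODE 44 transcript of DIS3 has 10571 bases, and the length that the authors' tables used to scale its TPM is not listed, so its level relative to other genes depends on the model.

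EXOSC10, on chromosome 1 (11066619 to 11099869, minus strand, 25 exons), was at 35.1, 32.1 and 36.1 TPM in Clover and at 41.7, 39.3 and 41.6 TPM in Z18trunc. The groups did not overlap and the libraries within each group lay close together. The means were 34.5 ± 2.07 and 40.9 ± 1.36 TPM, and the log2 difference was 0.24 (SE 0.08, 95% interval 0.06 to 0.42, limma adjusted p = 0.103). EXOSC10 was between 5.14 and 7.57 times as abundant as DIS3 in single libraries. The log2 ratio of DIS3 to EXOSC10 was -2.86 ± 0.0891 in Clover and -2.66 ± 0.259 in Z18trunc, a difference of 0.20 (exact two-sided permutation p = 0.3, where 3 against 3 libraries cannot go below 0.1). Without Z18trunc library 3 the difference was 0.053. The ratios overlapped between the groups. With a floor of 0.1 the test cannot decide whether the balance between EXOSC10 and DIS3 differed.

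Among the ring genes, the means of EXOSC4, EXOSC5 and EXOSC7 were lower in Z18trunc, and EXOSC4 was the one whose groups did not overlap. EXOSC4, on chromosome 8 (144078672 to 144080648, plus strand, 3 exons), was at 94.6, 102 and 104 TPM in Clover and at 85.0, 82.7 and 74.2 TPM in Z18trunc. Each Z18trunc library lay below each Clover library. The means were 100.3 ± 5.09 and 80.6 ± 5.69 TPM, and the log2 difference was -0.31 (SE 0.08, 95% interval -0.51 to -0.11, limma adjusted p = 0.0851). EXOSC8, on chromosome 13 (37000786 to 37009614, plus strand, 11 exons), was at 99.5, 94.1 and 92.1 TPM in Clover and at 104, 107 and 136 TPM in Z18trunc. The groups did not overlap, but Z18trunc library 3 stood well above the other 2. The log2 difference of EXOSC8 was 0.26 (SE 0.12, limma adjusted p = 0.19) and it was 0.14 without that library.

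The other ring genes overlapped between the groups. EXOSC5, on chromosome 19 (41386374 to 41397359, minus strand), had a mean of 131 ± 11.02 TPM in Clover and 123 ± 5.40 TPM in Z18trunc. EXOSC7, on chromosome 3 (44976244 to 45012666, plus strand), had a mean of 68.9 ± 5.89 and 67.2 ± 1.22 TPM, and its log2 difference was -0.03 (95% interval -0.23 to 0.17). EXOSC9, on chromosome 4 (121801323 to 121817021, plus strand), was at 18.2, 16.6 and 17.01 TPM in Clover and at 19.7, 18.1 and 26.2 TPM in Z18trunc. Its highest Clover value lay just above its lowest Z18trunc value, and library 3 of Z18trunc was again the highest, as for DIS3 and EXOSC8. The log2 difference of EXOSC9 was 0.28 (SE 0.14, limma adjusted p = 0.237), and it was 0.13 without Z18trunc library 3. EXOSC6, the sixth ring gene, lay outside the chosen names and had a mean of 15.3 ± 0.466 TPM in Clover and 16.3 ± 1.09 TPM in Z18trunc, with overlapping groups.

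The cap genes were close to one another in level, between 40.3 and 66.4 TPM in all libraries. EXOSC1, on chromosome 10 (97435909 to 97446017, minus strand), was at 55.9, 40.3 and 54.3 TPM in Clover and at 60.4, 59.1 and 57.7 TPM in Z18trunc. Clover library 2 was well below the other 2 controls, and without it the log2 difference of 0.25 (SE 0.13) was 0.10. EXOSC2, on chromosome 9 (130693760 to 130704894, plus strand), was at 57.6, 52.6 and 57.7 TPM in Clover and at 61.2, 61.0 and 64.9 TPM in Z18trunc. Its groups did not overlap, with a log2 difference of 0.15 (SE 0.07, limma adjusted p = 0.223). EXOSC3, also on chromosome 9 (37779714 to 37785092, minus strand), had a mean of 62.1 ± 2.76 TPM in Clover and 64.0 ± 3.43 TPM in Z18trunc. The EXOSC3 groups overlapped, with a log2 difference of 0.04 (95% interval -0.14 to 0.23).

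Summed over the 10 genes, exosome mRNA was at 616, 604 and 639 TPM in Clover and at 639, 621 and 662 TPM in Z18trunc, and the groups overlapped. The 2 catalytic genes together were at 39.2 ± 2.47 TPM in Clover and 47.4 ± 2.37 TPM in Z18trunc without overlap. EXOSC10 supplied 34.5 and 40.9 TPM of these means, so the catalytic sum mostly restates the order of EXOSC10. The 3 cap genes were at 168 ± 14.2 and 185 ± 4.64 TPM, also without overlap. The closest cap sums were 177 TPM in Clover and 180 TPM in Z18trunc. The log2 ratio of the mean sums was 0.28 for the catalytic genes. For the cap genes it was 0.14, near the median log2 difference of 0.11 of all genes. No share over all genes was computed for such sums. The 5 ring genes, which made up most of the sum, were at 412 ± 12.3 and 408 ± 14.4 TPM and overlapped. As a share of the sum, EXOSC4 took 16.2 ± 0.791% in Clover and 12.6 ± 1.22% in Z18trunc. EXOSC8 took 15.4 ± 0.886% and 17.98 ± 2.26%, and its closest libraries were 16.1% and 16.2%. EXOSC10 took 5.55 ± 0.204% and 6.38 ± 0.133%, EXOSC2 9.03 ± 0.320% and 9.73 ± 0.130%, and DIS3 0.766 ± 0.0700% and 1.02 ± 0.176%. The groups did not overlap in share for these 5 genes, and they did for the other 5. The shares are parts of the same sum, so a lower share of EXOSC4 raises those of the other genes. They are therefore not separate changes, and no background over other gene sets was computed for them.

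**Figure D2:**
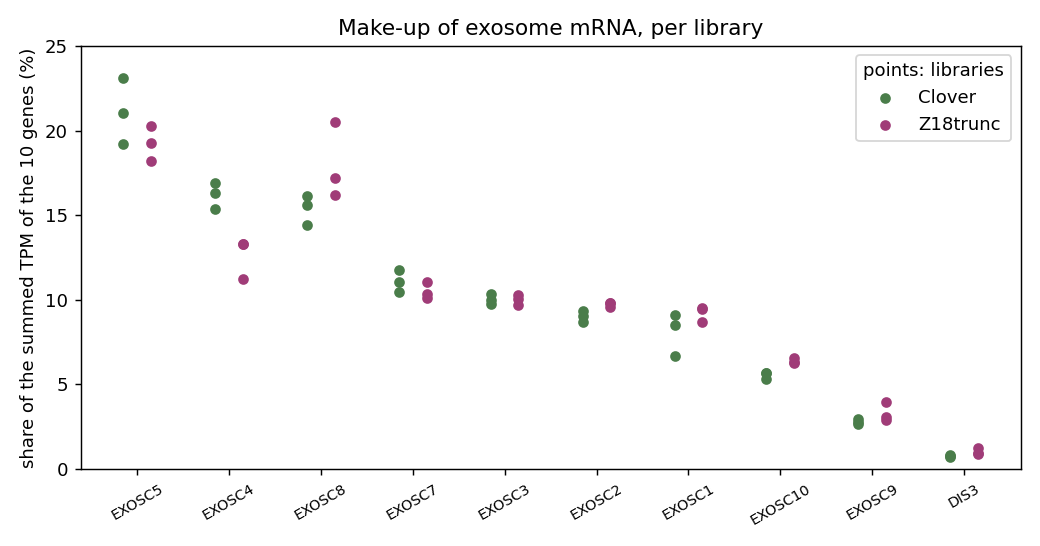
Share of the summed TPM of the 10 genes (%) taken by each gene in each library, with Clover and Z18trunc side by side. Points are libraries. EXOSC4 takes 15.3% to 16.9% in Clover and 11.2% to 13.3% in Z18trunc, and EXOSC8 takes 14.4% to 16.1% and 16.2% to 20.5%.

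The differences of the exosome genes followed the base composition of their transcripts, and those of all genes also followed transcript length. Over all genes tested, the median log2 difference moved from 0.30 in the lowest to -0.06 in the highest of 10 equal bins of transcript GC content (12820 genes with a canonical transcript in GENCODE 44). EXOSC8 (38.6% GC), DIS3 (39.1%), EXOSC9 (41.7%) and EXOSC3 (42.0%) lay at the low end. EXOSC5 (60.7%) and EXOSC4 (64.0%) lay at the high end. Across the 10 genes, GC content and log2 difference had a Pearson r of -0.86 and a Spearman rho of -0.88. Without EXOSC4, r was -0.74 and rho -0.83 over 9 genes, and over all 12820 genes r was -0.51 and rho -0.60. By transcript length, the median of all genes ran from -0.02 in the shortest to 0.29 in the longest bin, which held DIS3. Within length bins DIS3 was at 0.11 with overlapping groups. EXOSC1 (0.26), EXOSC2 (0.14), EXOSC8 (0.28) and EXOSC10 (0.17), 4 of the 10, stayed above Clover there without overlap, against 2268 of all 13300 genes. EXOSC4 (-0.29) stayed below it without overlap, against 2170 of all genes. The median of the 10 genes was then 0.12. The part of either property in the differences was not tested. The genes share the same 6 libraries and are not independent replicates.

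**Figure D3:**
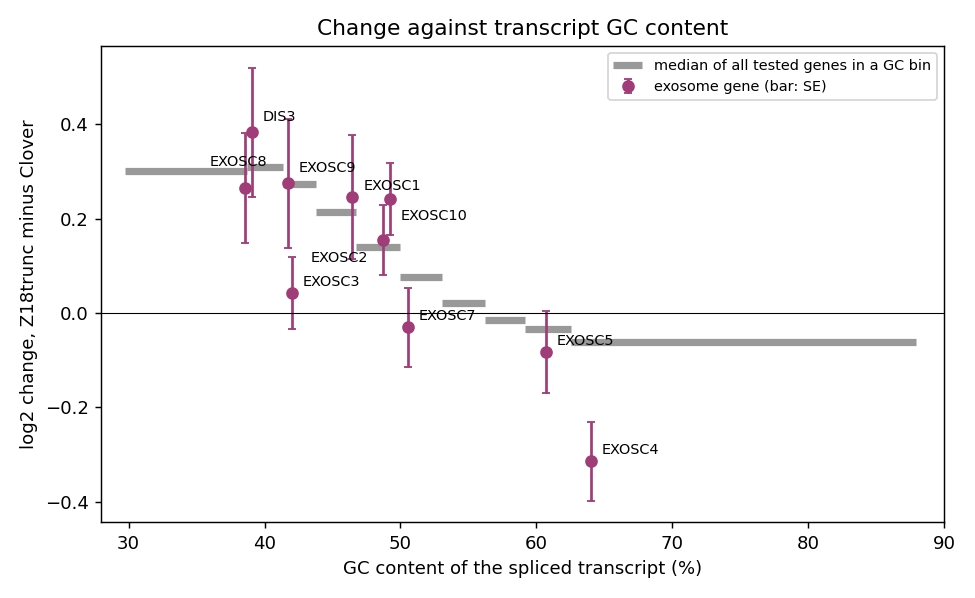
Log2 difference of TPM + 1, Z18trunc minus Clover, against the GC content of the spliced transcript (%). Points are the 10 exosome genes with bars of 1 SE, and grey lines are the medians of all tested genes in each of 10 GC bins, which run from 0.30 to -0.06. DIS3 and EXOSC8 lie near the grey lines, and EXOSC3 and EXOSC4 lie below them.

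When each library was centred within these GC bins, a setting chosen after the trend was seen, the median of the 10 genes went from 0.20 to -0.01. DIS3 was then at 0.08, EXOSC9 and EXOSC2 at 0.01, EXOSC1 at 0.04 and EXOSC8 at -0.04, all with overlapping groups. EXOSC10 kept its order, at 0.10, as 1 of the 10 above Clover without overlap, against 12.8% of all genes. Below Clover without overlap were 3 of the 10, EXOSC3 at -0.22, EXOSC4 at -0.25 and EXOSC7 at -0.11, against 12.2% of all genes. Centring each library on its median gene instead gave 5 genes above 0 and 5 below, with a median of 0.03. By order there, DIS3 (0.22) and EXOSC10 (0.08) lay above Clover, against 14.1% of all genes, and EXOSC3 (-0.12), EXOSC4 (-0.48) and EXOSC7 (-0.19) lay below it, against 25.3% of all genes. None of the 10 exosome genes passed limma's adjusted test under either scaling. By order alone, EXOSC4 was below Clover and EXOSC10 above it under the deposited TPM and under both of these scalings. The counts above Clover, 1 of the 10 within GC bins and 2 with median centring, were near the shares of all genes. The limma adjusted p of EXOSC10 was 0.43 within GC bins and 0.46 with median centring, and that of EXOSC4 was 0.24 and 0.13.

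**Figure D4:**
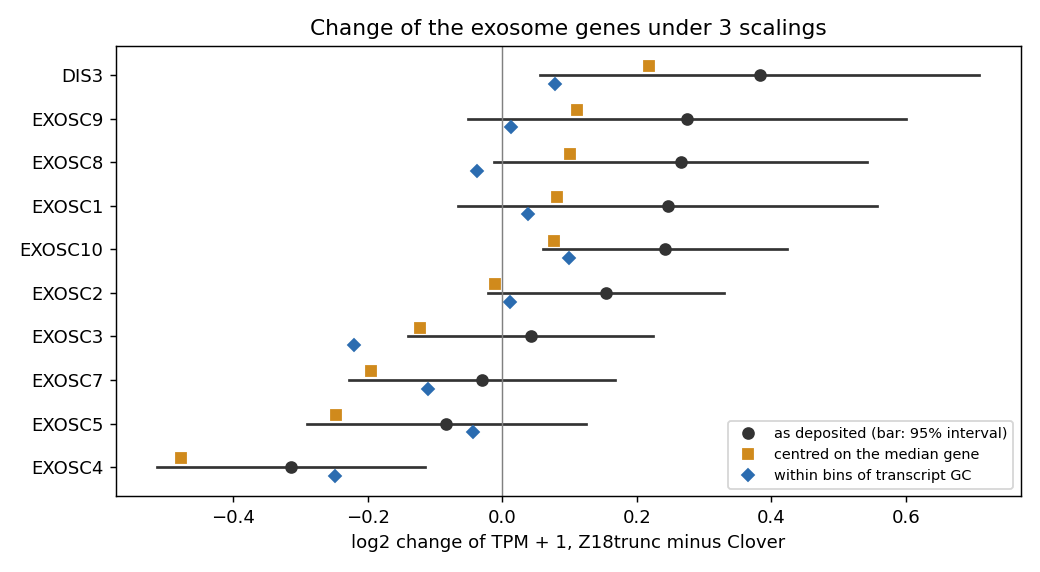
Log2 difference of TPM + 1, Z18trunc minus Clover, of each exosome gene under 3 scalings. Circles are the deposited TPM with 95% intervals, squares are values centred on the median gene and diamonds are values centred within 10 bins of transcript GC content. EXOSC4 lies below 0 under all 3, from -0.48 to -0.25, and DIS3 and EXOSC10 lie above 0 under all 3.

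Genes that work with the exosome were compared as lists. Of 14 nuclear cofactors, 1 passed limma's test, ZC3H18 itself, and 10 lay above Clover without overlap, where 30.1% of all genes did so. With median centring 6 of the 14 lay above and 1 below, against 14.1% and 25.3% of all genes. Within GC bins 5 lay above and 1 below, against 12.8% and 12.2%. Each count above includes ZC3H18, whose level holds RNA from the construct and was therefore set by the design. The median log2 difference of the other 13 cofactors was 0.30, against 0.20 for the core genes, and it was 0.05 within GC bins, against -0.01. Of 6 cytoplasmic partners and DIS3 paralogs, none passed, 2 lay above without overlap and the median was 0.24. DIS3L, the cytoplasmic paralog of DIS3 that joins the exosome, was at 10.8, 9.42 and 10.3 TPM in Clover and at 15.2, 13.8 and 13.6 TPM in Z18trunc. Its groups did not overlap, with a log2 difference of 0.45 (SE 0.08, limma adjusted p = 0.0773). When only genes with a mean of at least 5 TPM were tested, DIS3L passed (limma adjusted p = 0.0486), as did 474 of the 9973 genes then tested. It passed under no other setting. Its limma adjusted p was 0.130 with median centring and 0.235 within GC bins. DIS3L2, a paralog that degrades uridylated RNA without the exosome, was at 15.6 ± 1.27 and 16.8 ± 2.02 TPM and overlapped.

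Other decay pathways and other multi-subunit complexes gave a frame for these values. Of 8 genes of decay from the 5′ end, 3 lay above Clover without overlap and the median was 0.14. Of all genes, 30.1% lay above in this way, which is the share to set beside each count here. The smallest p of that list was that of XRN2, a nuclear exonuclease, with a log2 difference of 0.42 (limma adjusted p = 0.0783). Of 14 deadenylation genes 10 lay above, with a median of 0.37, and PARN, a poly(A)-specific ribonuclease, had the smallest p (0.38, limma adjusted p = 0.0773). Of the 14 proteasome genes 1 lay above, PSMA3 (0.20, limma adjusted p = 0.139), with a median of -0.01. Of the 8 CCT genes 4 lay above, with a median of 0.20, and CCT6A had the smallest p (0.39, limma adjusted p = 0.0773). None of the genes in these 4 lists passed the test, and none lay below Clover without overlap. EXOSC4 thus stood below Clover without overlap where no proteasome or CCT gene did. With median centring, however, 8 proteasome and 2 CCT genes did so too, against 25.3% of all genes. Within GC bins 6 and 3 did, against 12.2%. Within GC bins, 5 deadenylation genes, 1 gene of decay from the 5′ end and 1 CCT gene lay above, against 12.8% of all genes. Their list medians were then 0.14, 0.02 and -0.04, and 2 deadenylation genes lay below. Whether the lists differ from one another was not tested.

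**Figure D5:**
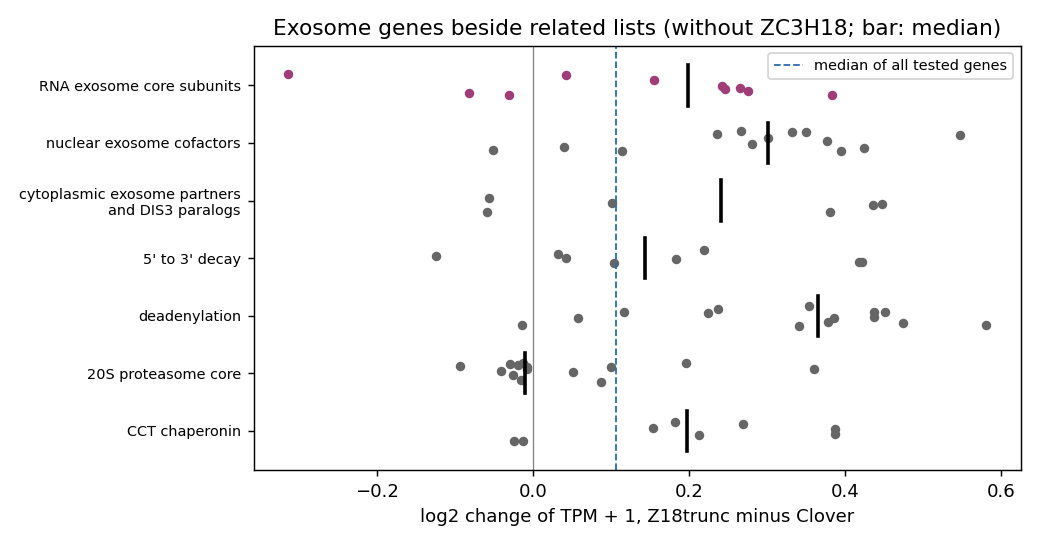
Log2 difference of TPM + 1, Z18trunc minus Clover, for the 10 exosome genes and 6 related lists, without ZC3H18. Points are genes, black bars are list medians and the dashed line is the median of all tested genes (0.11). The exosome genes run from -0.31 to 0.38, with a median of 0.20.

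Transposable element (TE) fragments in the introns of the exosome genes were counted as a second readout from the same libraries. On the strand of the gene and outside exons, 7 of the 10 genes reached 30 estimated fragments over the 6 libraries. EXOSC8 had 12, EXOSC3 had 2 and EXOSC4 had none, which for EXOSC4 allows up to 3 fragments, counting error only. None of the 7 passed the quasi-likelihood test of edgeR at an adjusted p of 0.05, against a background of 0.143% of genes called (12 of 8408, all higher). None had an unadjusted p under 0.05 either, where 13.7% of all genes were higher and 0.369% lower at that p. DESeq2 gave these 7 genes no adjusted p. The median log2 difference over all 8408 genes was 0.30. EXOSC9 was at 0.80 (edgeR adjusted p = 0.552), DIS3 at 0.29 (edgeR adjusted p = 0.854) and EXOSC2 at -0.68 (edgeR adjusted p = 0.602). DIS3 had 9, 5 and 7 fragments in Clover and 11, 5 and 10 in Z18trunc, and the groups overlapped.

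EXOSC10 held the most intronic TE fragments. It had 88, 58.6 and 70.7 estimated fragments in Clover and 90, 65.5 and 90.8 in Z18trunc. Per 1000000 aligned fragments (CPM) it was at 3.53 ± 0.433 and 3.98 ± 0.367, which overlapped (log2 difference 0.17, edgeR adjusted p = 0.769). A single L1PA3 element, a primate LINE-1 copy inserted on the strand of the gene at chr1:11083624-11086544, held 77.8% of them. That element was at 2.90 ± 0.309 CPM in Clover and 2.95 ± 0.227 CPM in Z18trunc, and 231 of its 361 fragments mapped uniquely. The level of this element overlapped between groups. An adjacent L1PA3 fragment, named after its values were seen and annotated on the plus strand at chr1:11086542-11087049, held 5.14% of the fragments counted on the strand of EXOSC10. It was at 0.0768 ± 0.0690 CPM in Clover and 0.303 ± 0.0733 CPM in Z18trunc without overlap. The estimated fragments were 3, 1.85 and 0 in Clover and 8, 4 and 7 in Z18trunc. Uniquely mapped fragments were 3, 1 and 0 in Clover and 8, 3 and 2 in Z18trunc, and these overlapped. A difference at this fragment was not tested, and no share over all TE loci stands beside it.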

How the data were processed

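RNA was sequenced from 6 SW480 libraries, 3 per construct, grouped by the sample titles. Per the labels, RNA was poly(A)-selected with a stranded kit. The authors trimmed reads with cutadapt 4.6 and used hg38, per the submitters' processing notes, and quantified TEs with SQuIRE. The deposited gene tables hold TPM, FPKM and coverage (signal) per gene without counts, so depth per gene is known only as coverage. The deposited TE tables hold uniquely mapped counts and estimated counts, in which the authors shared multiply mapped fragments among loci. The annotation version behind the gene tables is not given in the sources used here.

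TPM was summed by symbol. Genes with a mean of at least 1 TPM entered a limma 3.58.1 fit of log2(TPM + 1) in R 4.3.3. Fold changes on this scale understate those of low genes. The Benjamini-Hochberg adjustment covered all 13300 genes. Estimated TE counts were rounded, summed over introns of each gene (outside GENCODE 44 exons, bedtools 2.31.1) and tested with edgeR 4.0.16 on genes with at least 30 counts, with aligned fragments as library size. The fits were checked on simulated data. The members and lists were chosen with earlier results of these data known. Named genes were all members, ZC3H18, EXOSC6, DIS3L, DIS3L2, called list genes and the smallest p of each list. Alternatives were another pseudocount, filters on low values, scaling, FPKM, an intensity trend, DESeq2 1.42.0 and leaving out each library. P-values measure the spread between these libraries. Intervals and floors cover counting error only where counts were used, because no molecular identifiers were present.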

Additional observations from a re-analysis of the deposited data

How the results depend on the processing

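No exosome gene was called by limma under any of the 17 settings, and none by edgeR on intronic TE fragments under any setting run. The count of calls over all genes was less steady. It went from 2 to 1 with a pseudocount of 0.1, without a filter, with quantile normalization, within bins of transcript length and with a replicate block, to 60 with an intensity trend and to 474 with a mean of at least 5 TPM, and it ranged from 1 (without Z18trunc replicate 1) to 4 (without Clover replicate 2) when 1 library was left out. Calls in the related lists went from 1 to 8 with the filter at 5 TPM (fewer genes tested), DIS3L among them. Some signs turned. EXOSC2 was at -0.010 with median centring. EXOSC3 was at -0.027 with quantile normalization, -0.12 with median centring, -0.023 with FPKM and -0.22 within GC bins. EXOSC8 was at -0.038 within GC bins, and EXOSC7 ranged from -0.088 to 0.033 when 1 library was left out. With TMM scaling, intronic TE values were -0.11 for EXOSC7, -0.13 for EXOSC10 and -0.0062 for DIS3, and leaving out 1 library moved EXOSC1 from -0.42 to 0.19 and EXOSC5 from -0.66 to 0.042. The log2 difference of the summed TPM was 0.05, and it was -0.020 with FPKM. The cause of these shifts was not tested. Over all results and alternatives, 305 values were counted as keeping direction and side of the threshold, though not always size (DIS3 0.08 and EXOSC9 0.01 within GC bins). Another 13 changed sign, 10 counts of calls moved by over 1.5 times and 1 sum moved by more than its spread. Among the 305 are the counts of exosome genes without overlap, compared by their total only. The main fit had 5 above Clover and 1 below. Median centring gave 2 above and 3 below, and GC bins gave 1 and 3. By order, 4007 genes lay above and 895 below Clover, but 1870 and 3362 with median centring and 1696 and 1619 within GC bins. GC and length bins were chosen after seeing the data.

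The replicate block called 0 exosome genes and 1 gene in all. Deviations of same-numbered libraries correlated at -0.036, 0.017 and -0.037, so the numbers were not taken to pair the libraries. On the opposite strand no exosome gene reached 30 fragments, so that alternative gave no value, and DESeq2 gave these genes no adjusted p.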
